A study of Mus musculus with 24 samples.

Results

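The cortical layer identity transcription factors described here are Cux1, Cux2, Rorb, Bcl11b, Fezf2, Tbr1, Foxp2, Tle4 and Lmo4, chosen by gene symbol from a table of 23881 genes. All 9 were present in the table, and all 9 were among the 13927 genes tested, whose RPKM averaged 0.5 or more. RPKM, a read number scaled to the length of the gene's exons and to the mapped reads of the library, was the deposited measure, and its scaling to length allows levels of different genes to be set side by side. The RNA came from the visual cortex of C57BL6J mice of both sexes in 3 groups of 4 libraries. P28-KO mice carried a germline deletion of the miR-132/212 locus and were 28 days old, so that every cell of the animal lacked the miRNAs from conception. P28-wt mice were wild type at 28 days, and P10-wt mice were wild type at 10 days. The methods state that wild-type littermates of the mutants were used, without tying this to each sequenced group. All mice were reared under a normal light cycle. Mice open their eyes between these ages, and the P28 groups lie in the critical period in which circuits of the visual cortex are shaped by vision.

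The cerebral cortex is built of layers of projection neurons with different targets, and a small set of nuclear proteins both marks and sets these identities. Cux1, Cux2 and Rorb are used as markers of the upper layers, whose neurons project within the cortex and, in layer 4, receive input from the thalamus. Bcl11b (also known as Ctip2) and Fezf2 belong to the programme of layer 5 neurons that project to the brainstem and spinal cord. Tbr1, Foxp2 and Tle4 mark layer 6, whose neurons project to the thalamus, and Lmo4 is a LIM-domain cofactor found in several layers and involved in setting up cortical areas. None of the 9 is restricted to these layers: Bcl11b is also made in interneurons and in the striatum, and Foxp2 in the striatum and the thalamus. In tissue RNA of this kind, fewer cells of a type and less RNA per cell cannot be told apart.

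The miRNAs removed in P28-KO mice are cut from 1 transcript, and their mature sequences are shown because the seed, bases 2 to 8, decides which transcripts a miRNA can pair with. Capitals mark the seed, and the sequences are from RefSeq on GRCm38.p6, where all lie on the plus strand of chromosome 11.
miR-132-3p, chr11:75173723-75173744: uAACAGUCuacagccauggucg
miR-212-3p, chr11:75173443-75173464: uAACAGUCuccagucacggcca
miR-212-5p, chr11:75173403-75173425: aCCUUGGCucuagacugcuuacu
miR-132-5p, chr11:75173686-75173707: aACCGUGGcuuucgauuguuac
The first pair shared a seed, with the site GACTGTT, whereas miR-212-5p had the site GCCAAGG and miR-132-5p the site CCACGGT. The longest annotated 3′ UTR of each gene was searched on the transcript strand only. Among 13116 tested genes with an annotated 3′ UTR, 12.3% held GACTGTT, 12.2% held GCCAAGG and 3.21% held CCACGGT. Of the 9 layer genes, 1 held GACTGTT, 3 held GCCAAGG and 0 held CCACGGT. The 3 with GCCAAGG had the longest 3′ UTRs of the layer genes, with 8381 bases in Cux1, 7271 in Rorb and 4997 in Bcl11b. A longer 3′ UTR has more places for a match, and the shares were not adjusted for length. The stretches around these matches are shown with the match in capitals, since they are the places where the lost miRNAs could pair with a layer gene.
Foxp2, position 668 of the 3′ UTR, chr6:15438678-15438706, plus strand: cacagtaattaGACTGTTgcaaccatcta
Foxp2, position 3345 of the 3′ UTR, chr6:15441355-15441383, plus strand: aaatttcatgtGACTGTTacaagtatttg
Cux1, position 217 of the 3′ UTR, chr5:136274557-136274585, minus strand: aatcgccatagGCCAAGGtgcatatagaa
Cux1, position 6921 of the 3′ UTR, chr5:136267853-136267881, minus strand: caggcagtctgGCCAAGGccgtcaccctg
Rorb, position 4499 of the 3′ UTR, chr19:18933364-18933392, minus strand: accaacatttgGCCAAGGcctcatgccca
Bcl11b, position 4565 of the 3′ UTR, chr12:107910818-107910846, minus strand: tgccctgcataGCCAAGGcacattgatct
The second Foxp2 match is followed by an A, which extends a seed site in the usual classification. Cux2, Fezf2, Tbr1, Tle4 and Lmo4 held none of these sites in the window searched, and a match is a description of the sequence and not a measured binding event.

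The labels of the libraries were checked at the targeted locus. Mir132 was listed at 0 in the 4 P28-KO libraries, against 9.74 to 14.4 RPKM in P28-wt and 0.130 to 1.19 RPKM in P10-wt libraries. Slc17a7, the vesicular glutamate transporter of cortical excitatory neurons, averaged 602 ± 48.5 RPKM in P28-KO, 703 ± 57.9 RPKM in P28-wt and 272 ± 74.6 RPKM in P10-wt libraries (SD, n = 4 each). Summed RPKM of a library ran between 256643 and 293066. The study states an approximate read number per sample and refers to a supplementary figure for each replicate. The deposited files held no read counts, so the reads behind each value are not known exactly and no counting interval is given. A pair of libraries stood apart. On the first principal component, with 70.9% of the variance, 103R of P10-wt lay at -79.03, whereas -56.9 to -55.3 was the range of its group otherwise. On the second, with 7.55%, 158R of P28-wt lay at -38.7, and the other P28-wt libraries at -12.5 to 8.72. More than 1 RPKM of Xist and of Y-linked Ddx3y was seen together in 111R, 030R, 129R and 146R, which thus carried marks of both sexes. Xist was at 0.0885 RPKM or less in 103R, 117R and 099R of P10-wt, 079R of P28-KO, and 152R and 144R of P28-wt. Ddx3y was at 0.0363 RPKM in 088R of P28-KO and 0.0181 RPKM in 158R of P28-wt. Sex was therefore not balanced between the groups, and its part in the differences was not tested. The legend of the sequencing data gives as many mice as libraries in each group, and each deposited column name carries a pair of further numbers whose meaning is not given. The labels do not say how animals were divided between libraries, and p-values measure the spread between libraries only.

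The 9 genes spanned a wide range of levels, and their order was similar in the 3 groups. Lmo4 was the most abundant, with 117 ± 8.68 RPKM in P28-KO, 122 ± 5.66 RPKM in P28-wt and 91.3 ± 5.42 RPKM in P10-wt libraries (SD, n = 4 each). In P28-wt it stood above 97.6% of the genes tested. Foxp2 was the least abundant, with 2.08 ± 0.220 RPKM in P28-KO, 1.72 ± 0.416 RPKM in P28-wt and 2.72 ± 0.463 RPKM in P10-wt libraries (SD, n = 4 each), and in P28-wt it stood above 17.7% of the genes tested. In P28-wt libraries the order from high to low was Lmo4, Tbr1, Cux2, Fezf2, Tle4, Rorb, Cux1, Bcl11b and Foxp2. The libraries of Lmo4 and Tbr1 were clear of all others, whereas those of Cux2 and Fezf2 overlapped, as did those of Rorb and Cux1 and those of Cux1 and Bcl11b. In P10-wt libraries Bcl11b stood in the sixth place, above Cux1 and Rorb, and Fezf2 stood above Cux2. The plot of RPKM by library shows the whole set.

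**Figure D1:**
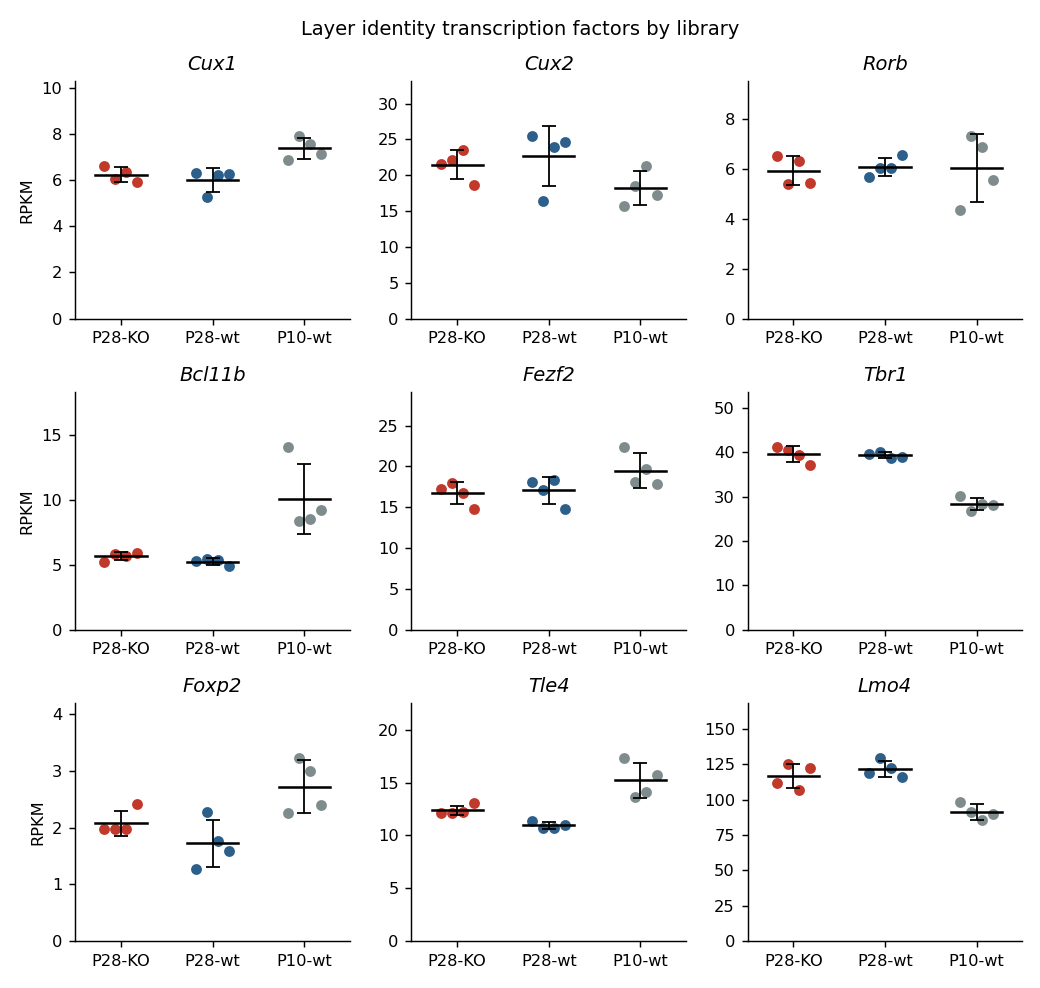
RPKM of the 9 layer identity genes in each library (vertical axes, RPKM, starting at 0), with P28-KO, P28-wt and P10-wt from left to right. Points are libraries and lines with bars are the mean and SD (n = 4). Tbr1 and Lmo4 were higher in both P28 groups than in P10-wt with no overlap, and Cux1, Bcl11b and Tle4 were lower with no overlap. Of all genes tested, 54.5% did not overlap between P28-wt and P10-wt and 54.7% between P28-KO and P10-wt.

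The first comparison asked how the layer genes differed between the ages in wild type. Bcl11b, Tle4, Foxp2 and Cux1 were lower at P28, Tbr1 and Lmo4 were higher, and Cux2, Rorb and Fezf2 did not pass the test. Limma was run on log2(RPKM + 0.1), and a call required a p under 0.05 after Benjamini-Hochberg adjustment over all 13927 genes. Thus 6 of 9 layer genes were called, beside 57.9% of all genes tested. Of these, 2 were higher, beside 26.7% of all genes, and 4 were lower, beside 31.2%. The share of layer genes called was near that of genes at large. A regularized test on RPKM, of the kind described in the methods, called 8 of 9, beside 76.6% of all genes. A setting of this test was changed after its first form had called 13731 of the 13927 genes. Libraries of the 2 ages did not overlap for 5 of the 9, beside 54.5% of all genes. The median log2 fold change, P28-wt over P10-wt, was -0.19 for the 9 genes and -0.05 for all genes, and the median of its absolute size was 0.42 and 0.40. The sets of layer genes that moved in each direction did not follow the upper and deep layers: the layer 6 gene Tbr1 was higher while the layer 6 genes Foxp2 and Tle4 were lower.

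Among the layer 5 genes, Bcl11b, a zinc-finger protein needed for the subcerebral axon tract, had 5.25, 5.41, 5.398 and 4.88 RPKM in P28-wt libraries, against 14.1, 8.36, 8.50 and 9.24 RPKM in P10-wt libraries. The groups did not overlap, and 1 P10-wt library, 103R, was well above the other P10-wt libraries. The log2 fold change was -0.89 ± 0.15 (SE; limma adjusted p = 0.000611). Without 103R it was -0.72 and still passed (adjusted p = 7.55e-05). Fezf2, which acts upstream of Bcl11b in mouse corticospinal neurons, had 18.1, 17.1, 18.3 and 14.7 RPKM in P28-wt libraries, against 22.4, 18.1, 19.7 and 17.8 RPKM in P10-wt libraries. These groups overlapped. Its log2 fold change of -0.19 ± 0.10 (SE) did not pass (limma adjusted p = 0.124), with an interval from -0.41 to 0.03. Fezf2 did pass, at -0.34 (adjusted p = 0.00542), when each library was corrected for its dependence on the GC content and length of transcripts (the GC and length trend).

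Of the layer 6 genes, Tbr1, a T-box factor that represses layer 5 fate in layer 6 neurons of the mouse, had 39.6, 40.1, 38.6 and 38.9 RPKM in P28-wt libraries, against 30.1, 26.7, 28.3 and 28.0 RPKM in P10-wt libraries. All P28-wt libraries lay within 2 RPKM of each other and above every P10-wt library. Tbr1 was 1.39-fold higher, a log2 fold change of 0.47 ± 0.07 (SE; limma adjusted p = 0.000160). It was the layer gene with the smallest p, and 2206th of all 13927 genes by p. The groups of Tle4, a Groucho-family corepressor of corticothalamic neurons, also stood apart. Tle4 had 11.4, 10.7, 10.7 and 10.98 RPKM in P28-wt libraries, against 17.3, 13.7, 14.1 and 15.7 RPKM in P10-wt libraries, a log2 fold change of -0.46 ± 0.09 (SE; limma adjusted p = 0.00116). With the GC and length trend removed it was -0.29 and still passed (adjusted p = 0.00706).

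Foxp2, a forkhead repressor of layer 6 neurons, had 1.28, 2.27, 1.77 and 1.58 RPKM in P28-wt libraries, against 2.26, 3.22, 2.9996 and 2.40 RPKM in P10-wt libraries. The highest P28-wt library, 158R, just reached the lowest P10-wt library. The log2 fold change was -0.64 ± 0.18 (SE; limma adjusted p = 0.0118). With the GC and length trend removed it was -0.31 and did not pass (adjusted p = 0.190).

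As deposited, the upper-layer genes differed less by age than the deep-layer genes other than Fezf2. With the GC and length trend removed this order did not hold, as Rorb had 0.43 and Tle4 -0.29. Cux1, a cut-domain homeobox protein of dendrite growth, had 6.32, 5.24, 6.20 and 6.25 RPKM in P28-wt libraries, against 6.87, 7.91, 7.58 and 7.14 RPKM in P10-wt libraries. The groups did not overlap, and the log2 fold change was -0.29 ± 0.09 (SE; limma adjusted p = 0.0180). This call was lost with the GC and length trend removed, where the value was -0.05 (adjusted p = 0.593). It was also lost under quantile normalization, at -0.22 (adjusted p = 0.0648), and without 111R, the second P10-wt library, at -0.26 (adjusted p = 0.0593).

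Cux2, the paralogue of Cux1, had 25.5, 16.4, 24.0 and 24.7 RPKM in P28-wt libraries, against 15.8, 18.5, 21.3 and 17.2 RPKM in P10-wt libraries. All P28-wt libraries but 158R lay above every P10-wt library. The log2 fold change was 0.30 ± 0.15 (SE) and did not pass (limma adjusted p = 0.0981). Without 158R it was 0.45 and passed (adjusted p = 0.00376), so that this library decided the call. Rorb, a nuclear receptor of layer 4, had 5.68, 6.01, 6.04 and 6.56 RPKM in P28-wt libraries, against 4.34, 7.31, 6.88 and 5.55 RPKM in P10-wt libraries. The P10-wt libraries lay on both sides of those of P28-wt. The log2 fold change was 0.04 ± 0.15 (SE; limma adjusted p = 0.840), with an interval from -0.29 to 0.37. It was -0.11 without 103R (adjusted p = 0.430), and 0.43 with the GC and length trend removed, where it passed (adjusted p = 0.0386). Lmo4 had 119, 129, 122 and 116 RPKM in P28-wt libraries, against 98.5, 91.4, 85.5 and 89.8 RPKM in P10-wt libraries. It was 1.33-fold higher with no overlap, a log2 fold change of 0.42 ± 0.08 (SE; limma adjusted p = 0.000977).

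**Figure D2:**
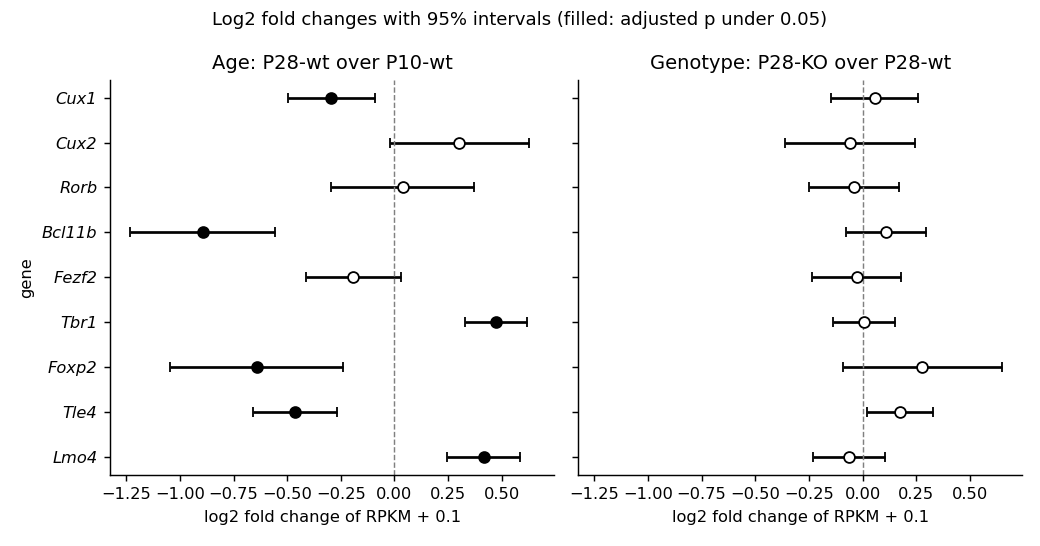
Log2 fold change of each layer gene (horizontal axes) with its 95% interval from limma, for P28-wt over P10-wt (left) and P28-KO over P28-wt (right). Filled points passed an adjusted p under 0.05. In the age comparison 6 of 9 genes were called, and in the genotype comparison 0.

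The transcripts of the layer genes differ in base composition, from 41.64% GC in Rorb to 60.04% in Cux2. Over all genes the log2 fold change by age had a correlation of 0.22 with GC content before the trend was removed and 0.02 after it, across genes, which are not independent replicates. The genes of low GC content, Rorb at 41.64% and Foxp2 at 42.63%, had larger shifts under this removal than Tbr1 at 51.87%. The value of Tbr1 was then 0.49. Cux1, at 50.43%, also moved, from -0.29 to -0.05, and Bcl11b, at 50.21%, from -0.89 to -0.70. The removal covered transcript length as well as GC content, and their parts were not separated. Bcl11b still passed (limma adjusted p = 0.00277), as did Lmo4, at 0.35 (limma adjusted p = 0.000649). Tbr1, Lmo4, Bcl11b and Tle4 thus passed in the same direction with the trend removed, under both other scalings and with any 1 library left out.

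**Figure D3:**
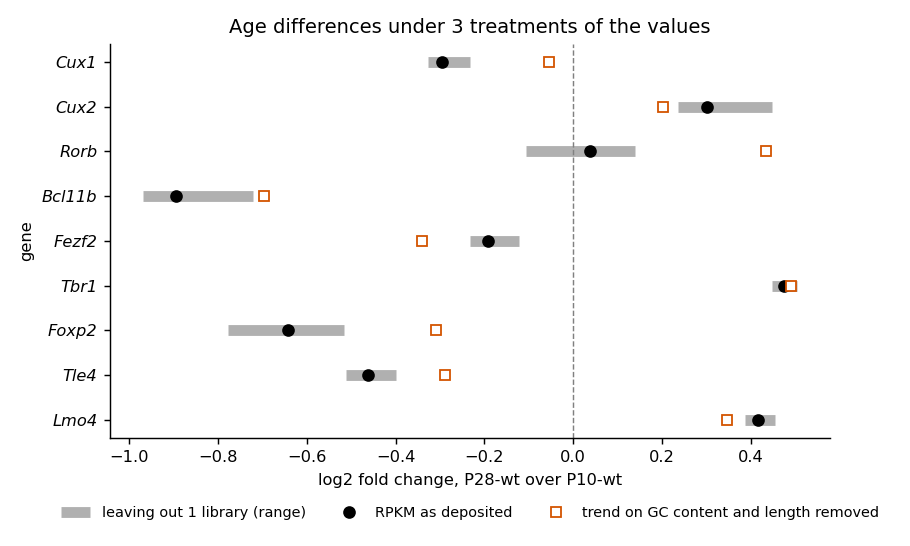
Log2 fold change of each layer gene, P28-wt over P10-wt (horizontal axis). Black points are RPKM as deposited, grey bars the range over the 8 fits that leave out 1 library, and open squares the values with the GC and length trend removed. Rorb had 0.04 as deposited and 0.43 after the removal, and Cux1 had -0.29 and -0.05.

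Genes of the same or neighbouring layers were then set against each other within each library, since such a difference does not depend on the scaling between libraries. The 6 pairs were compared between groups with an exact two-sided permutation test, whose smallest possible p with 4 against 4 libraries is 0.0286, and p-values were adjusted over the 6 pairs. In the age comparison 4 of the 6 pairs passed, each with no overlap between the ages and an adjusted p of 0.0429. The share of other gene pairs that would pass was not computed, and 54.5% of single genes did not overlap between the ages. The pairs hold the same values as the tests of single genes, and Tbr1 entered both Tbr1 minus Tle4 and Tbr1 minus Foxp2. This count is therefore not further support for those tests. Tbr1 exceeded Tle4 by 1.83 ± 0.045 on the log2 scale in P28-wt, against 0.90 ± 0.10 in P10-wt libraries (SD, n = 4 each). As a ratio of RPKM, Tbr1 over Tle4 was 3.48, 3.75, 3.60 and 3.55 in P28-wt libraries, against 1.74, 1.95, 2.01 and 1.78 in P10-wt libraries. These layer 6 genes therefore stood nearly 1 log2 unit further apart at P28, a difference of 0.94. Tbr1 minus Foxp2 was 4.46 ± 0.32 in P28-wt and 3.34 ± 0.30 in P10-wt libraries (SD, n = 4 each). Foxp2 minus Tle4 was -2.63 ± 0.36 in P28-wt and -2.45 ± 0.39 in P10-wt libraries (SD, n = 4 each), and its difference did not pass (exact permutation, adjusted p = 0.514).

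The layer 5 pair and the Cux pair also changed their ratio with age. Bcl11b over Fezf2 was 0.291, 0.316, 0.294 and 0.331 in P28-wt libraries, against 0.628, 0.462, 0.431 and 0.519 in P10-wt libraries. Every P28-wt library lay below every P10-wt library, and the log2 difference between the ages was -0.70. Cux1 over Cux2 was 0.248, 0.319, 0.259 and 0.253 in P28-wt libraries, against 0.436, 0.428, 0.356 and 0.414 in P10-wt libraries, a log2 difference of -0.60. Here 158R was the highest of the P28-wt libraries, and it stayed below all P10-wt libraries. Cux2 minus Rorb was 1.86 ± 0.30 in P28-wt and 1.60 ± 0.21 in P10-wt libraries (SD, n = 4 each) and did not pass (exact permutation, adjusted p = 0.274). Without 103R the 4 pairs that passed had adjusted p-values of 0.0571 to 0.0857 by the exact permutation test, and the same held without 111R. The differences kept their sign. Without 103R they were 0.90 for Tbr1 and Tle4, 1.23 for Tbr1 and Foxp2, -0.60 for Bcl11b and Fezf2 and -0.56 for Cux1 and Cux2, and without 111R they were 0.96, 1.01, -0.74 and -0.57 in the same order. With the GC and length trend removed, all 4 had an adjusted p of 0.0857, and the differences by age were 0.78 for Tbr1 and Tle4, 0.80 for Tbr1 and Foxp2, -0.35 for Bcl11b and Fezf2 and -0.26 for Cux1 and Cux2.

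**Figure D4:**
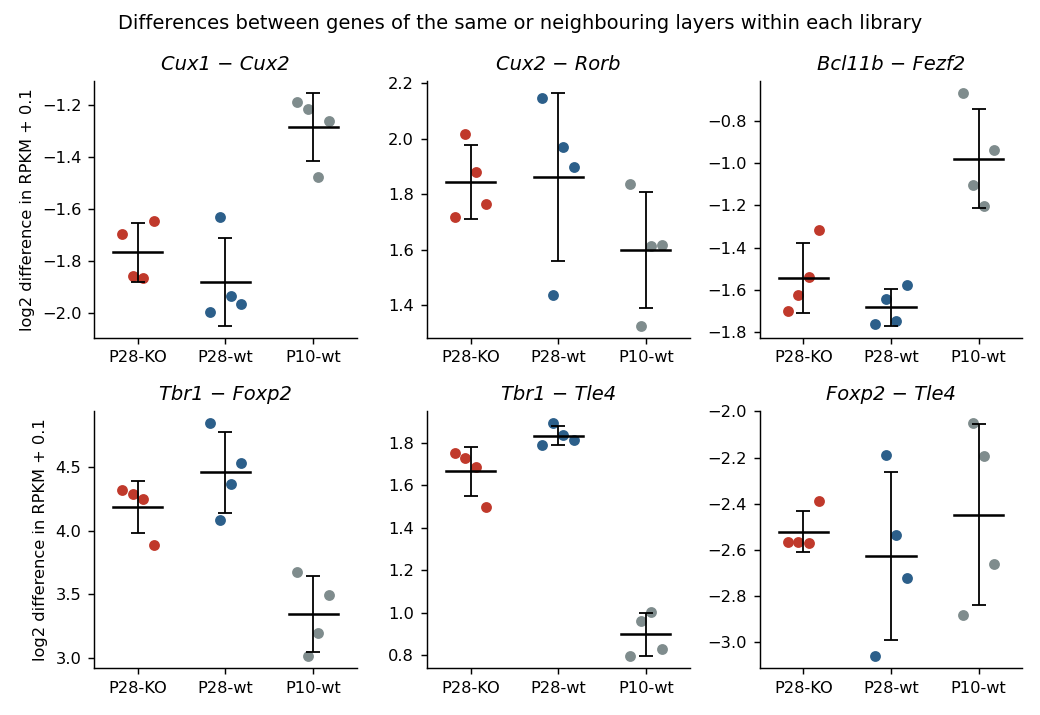
Within-library difference of log2(RPKM + 0.1) between 2 genes of the same or neighbouring layers (vertical axes, log2 units), with P28-KO, P28-wt and P10-wt from left to right. Points are libraries, lines and bars the mean and SD (n = 4). Tbr1 minus Tle4 was 1.67 in P28-KO, 1.83 in P28-wt and 0.90 in P10-wt libraries.

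The levels of the upper-layer genes Cux1, Cux2 and Rorb were also averaged on the log2 scale and set against the mean of the deep-layer genes Bcl11b, Fezf2, Tbr1, Foxp2 and Tle4, as a description with no test. The 3 upper-layer genes averaged 3.22 ± 0.10 in P28-KO, 3.24 ± 0.14 in P28-wt and 3.22 ± 0.19 in P10-wt libraries (SD, n = 4 each). The 5 deep-layer genes averaged 3.33 ± 0.02 in P28-KO, 3.22 ± 0.08 in P28-wt and 3.57 ± 0.10 in P10-wt libraries (SD, n = 4 each). The balance, upper minus deep, was -0.11 ± 0.12 in P28-KO, 0.02 ± 0.21 in P28-wt and -0.34 ± 0.28 in P10-wt libraries (SD, n = 4 each). Its range was -0.25 to -0.0045 in P28-KO, -0.29 to 0.20 in P28-wt and -0.74 to -0.14 in P10-wt, so neighbouring groups overlapped. The lowest P28-wt value came from 158R and the lowest P10-wt value from 103R. The overlap depended on the form: with medians in place of means, the P28-KO and P28-wt libraries did not overlap.

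**Figure D5:**
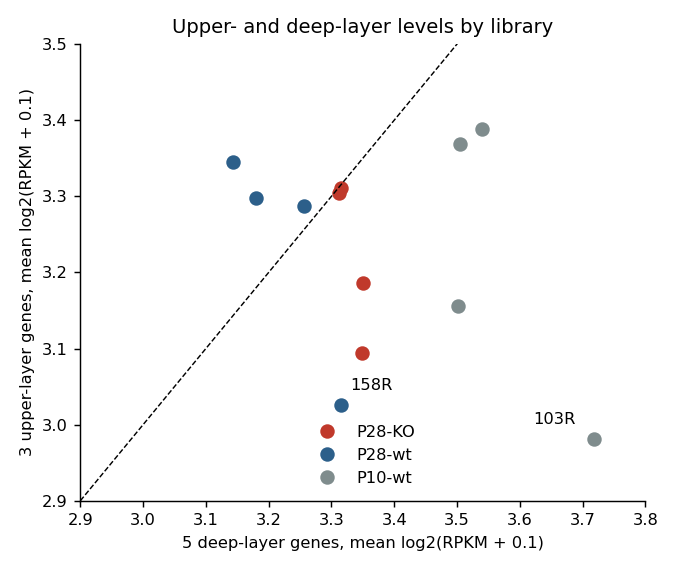
Mean log2(RPKM + 0.1) of 3 upper-layer genes (vertical axis) against that of 5 deep-layer genes (horizontal axis), 1 point per library in the colours of P28-KO, P28-wt and P10-wt. On the dashed line both means are equal. The P10-wt libraries lay to the right, at a deep-layer mean of 3.57, and 103R and 158R had the lowest upper-layer means.

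Library 103R lay at an end of the P10-wt range for all 9 genes. It had the highest Bcl11b, Fezf2, Tbr1, Tle4 and Lmo4 and the lowest Cux1, Cux2, Rorb and Foxp2 of the P10-wt libraries. In P28-KO libraries 079R had the highest Bcl11b, Foxp2 and Tle4 and the lowest Cux1, Cux2, Fezf2 and Tbr1. Without 103R and 158R together, an alternative chosen after seeing the data, 7 of 9 layer genes were called by age, the 6 named above and Cux2 at 0.38 (adjusted p = 0.00333).

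The second comparison asked whether the layer genes differed in mice without miR-132/212. None of the 9 passed limma's test between P28-KO and P28-wt, beside 0.0144% of all genes tested, that is 2 of 13927. At an unadjusted p under 0.05 the count was 1 of 9 layer genes, Tle4, and 1724 of all genes. The regularized test called 0 of 9, beside 11.3% of all genes, that is 1568 of 13927. Libraries did not overlap for 1 layer gene, again Tle4, beside 5.49% of all genes. The median log2 fold change, P28-KO over P28-wt, was 0.01 for the 9 genes and -0.03 for all genes.

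Tle4 had 12.1, 12.2, 12.2 and 13.0 RPKM in P28-KO libraries, against 11.4, 10.7, 10.7 and 10.98 RPKM in P28-wt libraries. Every P28-KO library was above every P28-wt library, by a log2 fold change of 0.17 ± 0.07 (SE; limma unadjusted p = 0.0290, adjusted p = 0.394). The value kept its sign in all 8 fits that left out a library, between 0.15 and 0.19. Within libraries Tbr1 minus Tle4 was 1.67 ± 0.12 in P28-KO and 1.83 ± 0.045 in P28-wt (SD, n = 4 each), with no overlap. This pair did not pass after adjustment over the 6 pairs (exact permutation, p = 0.0286, adjusted p = 0.171), and neither did the other 5 pairs. Tle4 held no site for the seeds searched.

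Foxp2, the layer gene with 2 copies of the shared miR-132-3p and miR-212-3p site, had 1.97, 1.97, 1.97 and 2.41 RPKM in P28-KO libraries, against 1.28, 2.27, 1.77 and 1.58 RPKM in P28-wt libraries. All P28-KO libraries were above 3 of the P28-wt libraries, and 158R of P28-wt lay within the P28-KO range. The log2 fold change was 0.28 ± 0.17 (SE; limma unadjusted p = 0.127, adjusted p = 0.482), with an interval from -0.09 to 0.65. It was 0.41 without 158R and 0.15 without 146R, the P28-wt library with the lowest Foxp2, and neither passed. With the GC and length trend removed it was 0.14 (adjusted p = 0.769). Over all genes the log2 fold change by genotype had a correlation of -0.33 with GC content, across genes, and of -0.01 after the removal.

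Intervals for the genes with a miR-212-5p site lay on both sides of 0. Cux1 had 6.61, 6.05, 6.37 and 5.90 RPKM in P28-KO libraries, against 6.32, 5.24, 6.20 and 6.25 RPKM in P28-wt libraries, a log2 fold change of 0.06 with an interval from -0.15 to 0.26. Bcl11b had 5.24, 5.79, 5.70 and 5.90 RPKM in P28-KO libraries, against 5.25, 5.41, 5.398 and 4.88 RPKM in P28-wt libraries. Its log2 fold change was 0.11, with an interval from -0.08 to 0.29. Rorb had 6.50, 5.405, 6.31 and 5.42 RPKM in P28-KO libraries, against 5.68, 6.01, 6.04 and 6.56 RPKM in P28-wt libraries, a log2 fold change of -0.04 with an interval from -0.25 to 0.17. In each of these genes the libraries of the genotypes overlapped.

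The intervals of Tbr1, Lmo4, Cux2 and Fezf2 also held 0. Tbr1 had 41.2, 40.5, 39.4 and 37.0 RPKM in P28-KO libraries, against 39.6, 40.1, 38.6 and 38.9 RPKM in P28-wt libraries, a log2 fold change of 0.01 with the narrowest interval of the 9, from -0.14 to 0.15. Lmo4 had 112, 126, 107 and 122 RPKM in P28-KO libraries, against 119, 129, 122 and 116 RPKM in P28-wt libraries, and an interval from -0.23 to 0.11. Cux2 had 21.6, 22.2, 23.5 and 18.7 RPKM in P28-KO libraries, against 25.5, 16.4, 24.0 and 24.7 RPKM in P28-wt libraries. Its interval ran from -0.36 to 0.24. Fezf2 had 17.2, 18.03, 16.8 and 14.8 RPKM in P28-KO libraries, against 18.1, 17.1, 18.3 and 14.7 RPKM in P28-wt libraries, with an interval from -0.23 to 0.18. A log2 fold change of 1 or of -1 for any of the 9 genes lay outside its interval.

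P28-KO was also tested against P10-wt to order the 3 levels of each gene. This comparison shares the libraries of each group with the comparisons above and is not a further test of either. Bcl11b, Tle4, Foxp2 and Cux1 were lower in P28-KO than in P10-wt, with log2 fold changes of -0.78, -0.29, -0.36 and -0.24, and Tbr1 and Lmo4 were higher, at 0.48 and 0.35. For these 6 genes both P28 groups thus lay on the same side of P10-wt, and the difference between the P28 groups did not pass the test. Cux2, Fezf2 and Rorb did not pass in any of the 3 comparisons.

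Other regulators of layer identity were counted from lists chosen with earlier results of these data known, so their counts and medians are descriptions only. Of all genes tested, 26.7% were higher and 31.2% lower by age, and these shares stand beside every list count that follows. Of 8 other upper-layer regulators, 7 were lower and 1 was higher in P28-wt than in P10-wt, and their median log2 fold change was -0.85. Pou3f1, a POU-domain factor, had a mean of 8.14 RPKM in P28-wt, against 20.8 RPKM in P10-wt libraries (log2 fold change -1.32 ± 0.13, SE; limma adjusted p = 1.68e-05). Of 8 other deep-layer regulators, 6 were lower and 0 were higher, with a median of -0.78. Sox5, an SRY-box factor that controls the sequential generation of deep-layer neurons in the mouse, had 4.06 RPKM in P28-wt, against 9.46 RPKM in P10-wt libraries (-1.19 ± 0.12; adjusted p = 1.83e-05). The medians of both lists lay below that of the 9 layer genes, at -0.19, and of all genes, at -0.05.

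Paralogues and partners of the 9 genes gave 7 lower and 3 higher of 13 tested. Bcl11a, the paralogue of Bcl11b, was lower as Bcl11b was, with 28.6 RPKM in P28-wt, against 48.3 RPKM in P10-wt libraries (log2 fold change -0.75 ± 0.09, SE; limma adjusted p = 5.9e-05). Foxp1 and Foxp4, paralogues of Foxp2, were lower too, at -0.66 and -0.33. Rora, the paralogue of Rorb, was higher, at 0.76, with 4.19 RPKM in P28-wt, against 2.51 RPKM in P10-wt libraries (adjusted p = 0.0170). Lmo3, a paralogue of Lmo4, was lower at -0.98, whereas Lmo4 was higher, and Lmo1 was lower at -0.80 while Lmo2 had 0.09 and did not pass. Among the Groucho-family genes, Tle3 was lower, at -0.38, the truncated member Aes was higher, at 0.42, and Tle1 and Tle2 had -0.02 and 0.20 and did not pass. Of the adaptors that bind LIM proteins, Ldb1 was higher, at 0.43, and Ldb2 lower, at -0.81. Fezf1, Eomes and Tbx21 were under the minimum for testing, with group means of at most 0.235 RPKM.

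Genes that mark the same layers but are not regulators gave a mixed picture. Of 10 upper-layer markers 4 were higher and 3 lower in P28-wt than in P10-wt, among them Calb1, a calcium-binding protein, at 1.79, and Mdga1, an adhesion protein, at -2.001. Of 9 layer 5 markers 3 were higher and 3 lower, among them Rbp4 at 1.83 and Fam84b at -1.41. Of 8 layer 6 markers 0 were higher and 3 lower, among them Ntsr1, a neurotensin receptor of corticothalamic neurons, at -2.10, and Hs3st4 at -0.50. Of 8 transcription factors of the projection neuron lineage, 1 was higher and 3 were lower, with Zbtb18 at -0.98 and Neurog2 at 2.29. In the genotype comparison none of the genes in the lists above passed limma's test at the adjusted threshold, beside 0.0144% of all genes tested. Sox5, with the smallest p of the other deep-layer regulators, had 4.62 to 5.54 RPKM in P28-KO and 3.83 to 4.32 RPKM in P28-wt. Its log2 fold change was 0.33 ± 0.09 (SE, limma unadjusted p = 0.00459, adjusted p = 0.382). Neurog2, with the smallest p of the lineage list, had -0.98 (limma unadjusted p = 0.00404, adjusted p = 0.382). The paper names Sox5 among miR-132-3p targets that fell with age and were higher in the mutant.

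Markers of other cells and regions moved with age in the same libraries. All 5 oligodendrocyte markers were higher in P28-wt than in P10-wt, and their summed RPKM was 839 to 1151 in P28-wt, against 10.8 to 39.7 in P10-wt libraries. All 5 microglial markers were higher too, and of 8 interneuron markers 5 were higher and 1, Lhx6, was lower, at -0.64 (limma adjusted p = 0.00593). Of 5 nuclear RNAs taken as a sign of RNA quality, 3 were higher, 1 was lower and Meg3 had 0.03 and did not pass. Neat1 was higher at 1.57 and Malat1 at 0.81, whereas Miat was lower at -0.38. Their summed RPKM was 680 to 904 in P28-wt, against 560 to 625 in P10-wt libraries, their part in the differences of the layer genes was not tested, and between the genotypes 0 of 5 were called. Thalamic markers, with 1 higher and 2 lower of 5 tested, summed to 11.4 to 13.2 in P28-wt, against 19.8 to 31.3 in P10-wt libraries. Striatal markers, with 2 higher and 4 lower of 7, summed to 94.7 to 106.0 in P28-wt, against 34.7 to 55.4 in P10-wt libraries. Ppp1r1b, with a mean of 54.5 RPKM in P28-wt and 5.27 RPKM in P10-wt libraries, and Penk were the higher ones. Drd2, Rgs9, Adora2a and Drd1 were lower, with log2 fold changes of -1.53, -1.01, -0.49 and -0.42. The sum thus did not show the direction of most striatal markers. No thalamic or striatal marker was listed at 0 in all 12 libraries. The part of these cells and regions in the differences of Bcl11b and Foxp2 was not tested. Between the genotypes the oligodendrocyte markers summed to 671 to 765 RPKM in P28-KO, against 839 to 1151 RPKM in P28-wt libraries, with 0 of 5 called by limma, and the part of this in the values of Tle4 and Foxp2 was not tested.

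For each layer gene the genes with the most similar pattern over the 12 libraries were named by Pearson's r on log2(RPKM + 0.1), among the 12699 genes averaging 1 RPKM or more. These values are a description, since the libraries share an age and a library composition. Bcl11b was closest to Sox11 (r = 0.99), a factor of immature neurons, and to Lss (r = 0.99), an enzyme of sterol synthesis. Tbr1 was closest to Lag3 (r = 0.99) and Kndc1 (r = 0.99), which were also higher in P28-wt than in P10-wt. Tle4 was closest to the ephrin receptor Epha7 (r = 0.98) and the actin regulator Enah (r = 0.98), and Lmo4 to Tmem81 (r = 0.98) and Stx16 (r = 0.98). Cux1 was closest to Trpm3 (r = 0.94) and Pcdha2 (r = 0.93), and Cux2 to Scrt1 (r = 0.96) and Sympk (r = 0.92). Kcnq5 (r = 0.89) was among the 2 closest to Rorb. For Fezf2 the closest were Prr5 (r = 0.93) and Ptbp1 (r = 0.93), and for Foxp2 they were Zfp712 (r = 0.91) and Vapa (r = 0.91). No layer gene was among the 2 closest of another.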

How the data were processed

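Per the labels and the study's methods, the authors extracted total RNA from visual cortex, prepared TruSeq libraries, sequenced paired-end reads, aligned them to mm10 with RefSeq models and deposited 1 RPKM value per gene and library from uniquely aligned reads. The submitters' processing notes name CASAVA 1.8.2, SAMtools 0.1.19 and Bowtie 0.12.8. RPKM removes length and library size but not GC content. Reads could not be recovered: of 726 ratios between low values, 10.88% were whole to within 0.05, and chance alone gives 10%. Genes averaging 0.5 RPKM or more in the 12 libraries were tested with limma 3.58.1 (R 4.3.3, trend on mean level) on log2(RPKM + 0.1), each pair of groups alone. This scale understates changes of low genes. The tests were tried on simulated data. Sequences and annotation came from RefSeq on GRCm38.p6, the build of mm10. GC content and length were available for 13867 of the 13927 tested genes and for all 9 layer genes. The layer genes and the lists were chosen with earlier results of these data known. Named are the layer genes, the 2 genes of each layer list with the smallest p by age, their paralogues and the 2 genes most like each. A few of these are not reported here. The 12 small RNA libraries were not analysed here.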

Additional observations from a re-analysis of the deposited data

Results flagged for a closer look

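Within groups of 4 libraries, 5 of 27 combinations of layer gene and group had 1 library whose gap to the next, as a share of the range of its group, exceeded Dixon's 95% critical value, which chance alone would exceed in about 1 of 20. Library 158R of P28-wt had the lowest Cux1, at 5.24 RPKM, and the lowest Cux2, at 16.4 RPKM. Library 103R of P10-wt had the highest Bcl11b, at 14.1 RPKM. Library 079R of P28-KO had the highest Foxp2, at 2.41 RPKM, and the highest Tle4, at 13.0 RPKM.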

How the results depend on the processing

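The sample labels carry no replicate numbers, but the deposited column names number the libraries 1 to 4 in every group, and nothing ties libraries of the same number to each other. The correlation of their deviations from the group means, across genes, was over 0.1 for 2 of 4 pairs by age and for 1 of 4 by genotype, and 2 and 1 of the 4 libraries correlated best with their own number. With this number as a replicate block, chosen after seeing the data, limma called 3625 genes higher and 4244 lower by age and 0 and 2 by genotype. The block changed no call of a layer gene: 6 of 9 were called by age, with Cux1 at -0.29 (adjusted p = 0.0449), and 0 by genotype. In the age comparison 6 of 9 layer genes were called, and 5 to 8 over the alternatives. Of 171 repeats for single layer genes by age 159 kept direction and call, and of 162 by genotype 146 did. The changes of call by age concerned Cux1, Cux2, Rorb, Fezf2 and Foxp2, and no layer gene was called by genotype under any alternative. The cause of these changes was not tested. Rorb by age was 0.04 as deposited, -0.11 to 0.14 with 1 library left out and -0.10 without 103R and 158R, an alternative chosen after seeing the data.

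By genotype, where no layer gene passed, signs of small values turned. Leaving out 1 library gave -0.0070 to 0.082 for Cux1, -0.21 to 0.0065 for Cux2, -0.096 to 0.028 for Fezf2 and -0.014 to 0.037 for Tbr1. Median-ratio scaling gave 0.0025 for Fezf2, and quantile normalization 0.020 for Fezf2 and 0.041 for Lmo4. With the GC and length trend removed Cux1 was -0.067, Cux2 0.011, Fezf2 0.091 and Lmo4 0.035. The within-library difference of Cux2 and Rorb was -0.16 to 0.078 and that of Foxp2 and Tle4 -0.040 to 0.25 with 1 library left out. With the trend removed, also chosen after seeing the data for these pairs, it was -0.23 for Cux2 and Rorb by age, and by genotype 0.23 for Cux2 and Rorb, -0.078 for Cux1 and Cux2 and -0.065 for Bcl11b and Fezf2.

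The regularized test on RPKM called 629 genes higher and 939 lower by genotype, beside 0 and 2 with limma, and none of the 9 layer genes. Its first form, with the uniform part of the p-value mixture free, called all 13927 genes by genotype and 13731 by age. The part was therefore set to its upper bound in both comparisons, a choice made after seeing the data. With medians in place of means, the balance of upper and deep genes was -0.98 in P28-KO, -0.79 in P28-wt and -1.03 in P10-wt libraries, each moved by more than 1 SD. Its range was -1.13 to -0.87 in P28-KO, -0.84 to -0.74 in P28-wt and -1.32 to -0.78 in P10-wt. In this form P28-KO and P28-wt did not overlap, whereas they did with means, and neither form was tested.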
